A study of Mus musculus with 9 samples.

Results

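Chromatin signal for the nuclear receptor NR4A2 was examined at the genes of the creatine kinase and phosphocreatine system in mouse heart ventricle. The genes were Ckm, Ckmt2, Ckb, Ckmt1, Slc6a8 and Ak1. Their regions were chosen by gene name and position: every region of the deposited table that touched a gene's RefSeq span (GRCm38), extended by 10 kb on each side, was taken. This gave 27 of 16884 regions, all 6 genes having at least 1. The rule set no threshold on a measured value, but the genes were proposed with earlier results of the same contrast known. Which libraries the regions were detected in was not stated, and these libraries may be among them. The calls and adjusted p-values below therefore describe where each region stood in the fit over the whole table, and are not independent evidence about the genes.

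The 3 NR4A2 libraries came from Nr4a2-icTg mice, which carry a ROSA26 knock-in of Nr4a2 that is switched on in cardiomyocytes by a tamoxifen-inducible Cre recombinase under the Myh6 (αMHC) promoter. The 3 Control libraries came from αMHC-MerCreMer littermates, so both groups carry the Cre transgene and both were given tamoxifen. Mice were 8 to 9 weeks old, received 1 dose of 40 mg/kg tamoxifen into the abdomen, and were sampled 3 days later. Each library is ventricle chromatin of 1 mouse precipitated with an NR4A2 antibody (9D12). Fly chromatin was added to each reaction as a spike-in. Values are CPM, reads per region scaled to library size, as deposited. That library size was the library's own reads in the regions times a factor of 0.991 to 1.01. Each value is therefore relative to the other regions, and an absolute gain or loss of signal was not tested. The libraries held 549700 to 1035856 reads in regions, and 3 reads corresponded to between 2.86 and 5.43 CPM. The ventricle holds other cell types besides the cardiomyocytes that carry the active transgene, and fewer cells with a signal cannot be told apart from less signal per cell.

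The phosphocreatine system carries high-energy phosphate from the mitochondria to the sites of ATP use. Mitochondrial creatine kinase makes phosphocreatine from creatine and mitochondrial ATP. Cytosolic creatine kinase then uses phosphocreatine to regenerate ATP beside the myofibrils and ion pumps. Heart muscle relies on the muscle-type cytosolic subunit encoded by Ckm and on the sarcomeric mitochondrial enzyme encoded by Ckmt2. Creatine enters the cell through the transporter encoded by Slc6a8, and Ak1 encodes the cytosolic adenylate kinase, which recovers ATP from ADP.

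The promoters of the 3 creatine kinase genes that had a region over the transcription start are shown. In NR4A2 hearts the region over the start of Ckm was called lower, that of Ckmt2 was called higher and that of Ckb was not called. Each window runs from 250 bases before to 50 bases after the start on the gene's own strand, as given by RefSeq (GRCm38.p6). Capitals mark matches to AAAGGTC or to TATANA, on either strand.
Ckm promoter, chr7:19410844-19411143, plus strand: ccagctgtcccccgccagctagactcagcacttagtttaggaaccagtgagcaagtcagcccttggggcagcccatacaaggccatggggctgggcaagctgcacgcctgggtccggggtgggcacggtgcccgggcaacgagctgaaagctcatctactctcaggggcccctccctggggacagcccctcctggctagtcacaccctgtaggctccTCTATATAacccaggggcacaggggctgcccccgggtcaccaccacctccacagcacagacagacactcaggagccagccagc
Ckmt2 promoter, chr13:91876836-91877135, minus strand: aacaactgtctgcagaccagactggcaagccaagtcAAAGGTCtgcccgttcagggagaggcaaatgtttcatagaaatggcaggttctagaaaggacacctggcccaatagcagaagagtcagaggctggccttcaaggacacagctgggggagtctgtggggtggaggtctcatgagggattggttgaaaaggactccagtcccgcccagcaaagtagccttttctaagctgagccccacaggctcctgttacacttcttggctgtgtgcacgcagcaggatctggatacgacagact
Ckb promoter, chr12:111672289-111672588, minus strand: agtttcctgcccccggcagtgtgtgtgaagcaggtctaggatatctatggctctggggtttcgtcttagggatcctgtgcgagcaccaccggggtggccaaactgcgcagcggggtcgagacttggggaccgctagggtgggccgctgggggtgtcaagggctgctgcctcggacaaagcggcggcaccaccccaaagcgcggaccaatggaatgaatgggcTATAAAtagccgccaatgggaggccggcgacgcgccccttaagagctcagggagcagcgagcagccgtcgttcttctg

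All 300 bases of the Ckm window and all 300 of the Ckmt2 window lay inside a region, whereas 106 bases of the Ckb window did. None of the 3 windows held AAAGGTCA, the NBRE octamer that NR4A receptors bind as monomers, on either strand. That octamer was present in 1.51% of the 32851 RefSeq promoter windows of the same length. Its hexamer core AGGTCA, found in 16.3% of all windows, was also missing from the 3. The Ckmt2 window held the first 7 letters of the octamer, AAAGGTC, on the gene's strand with their first base at -214 from the start. This shorter motif, which overlaps the octamer and was looked for after the sequences had been seen, occurred in 3.77% of windows. TATANA, also looked for afterwards and present in 24.7% of windows, lay at -28 in Ckb. In Ckm it had overlapping matches at -33 and -31, and the Ckmt2 window had none. These are matches of letters in a window, not binding sites.

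In NR4A2 hearts the muscle-type and the sarcomeric mitochondrial creatine kinase genes moved in opposite directions. Signal was lower at all 5 regions of Ckm and higher at 4 of the 11 regions of Ckmt2, with log2 fold changes of -1.07 and 0.96 at the regions over the starts. No region of Ckb, Ckmt1, Slc6a8 or Ak1 was called. Calls are at an adjusted p under 0.05 from limma across all 16884 regions (Benjamini-Hochberg). Higher calls made up 14.8% of the 27 regions and 14.7% of all regions. Lower calls made up 18.5% of the 27 and 3.17% of all regions. Every NR4A2 mouse lay above every Control mouse at 7 of the 27 regions, all at Ckmt2, while 19.9% of all regions showed that order. Every NR4A2 mouse lay below every Control mouse at 4 of the 27, of which 3 were at Ckm and 1 at Ak1, and 11.7% of all regions showed that order. Counted by gene, 1 of the 6 had a higher region and 1 had a lower region, while 14.2% of the 11154 genes with a region had a higher one and 6.25% a lower one. Without scaling for depth, Ckm region 3 was the only one of the 9 called regions that kept its call, although the estimates at the starts of Ckm and Ckmt2 remained at -1.09 (adjusted p = 0.158) and 0.93 (adjusted p = 0.216). The median log2 fold change was 0.01 over the 27 regions and -0.06 over all regions.

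**Figure D1:**
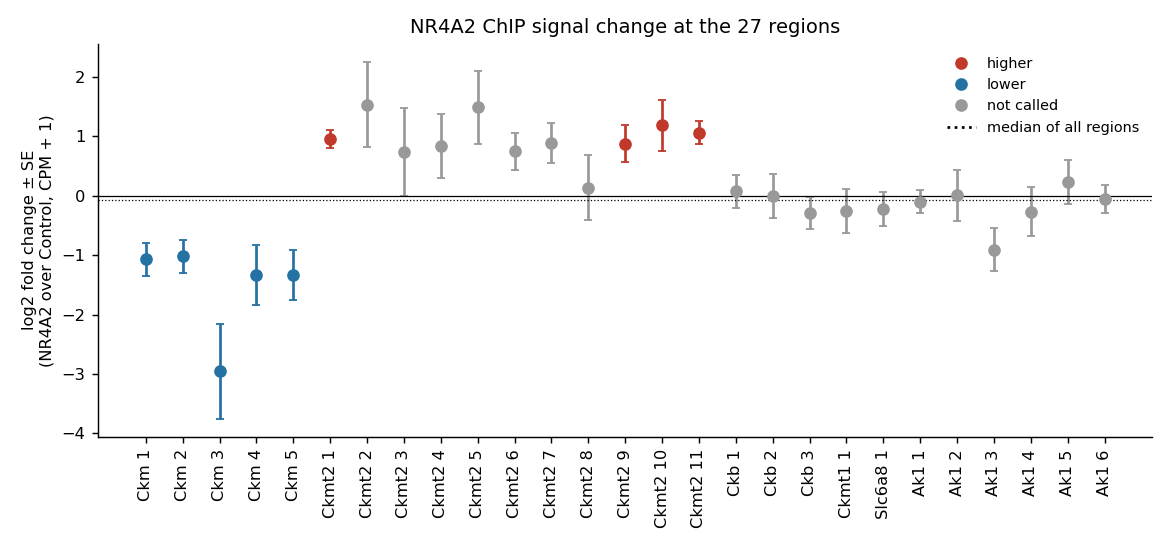
Log2 fold change in NR4A2 over Control hearts at the 27 regions, on the log2(CPM + 1) scale, with points for the limma estimate and bars for its standard error (3 mice per group). Regions are numbered along each gene in the direction of transcription (Slc6a8 and Ckmt1 have 1 each), colours mark calls, and the dotted line is the median of all regions at -0.06. The 5 Ckm estimates lie between -2.95 and -1.02, and the 11 Ckmt2 estimates between 0.14 and 1.54.

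Ckm encodes the muscle subunit of cytosolic creatine kinase and lies on the plus strand at chr7:19411094-19421583. Its region 1 covered the transcription start (chr7:19410725-19411326, 602 bp). It held 34.4, 44.1 and 27.7 CPM in the 3 NR4A2 mice, against 73.8, 65.2 and 85.1 CPM in the 3 Control mice. Every NR4A2 value was below every Control value. The means were 35.4 ± 8.24 CPM in NR4A2 hearts and 74.7 ± 9.96 CPM in Control hearts (SD, n = 3 each), a log2 fold change of -1.07 ± 0.28 (SE; limma adjusted p = 0.00255).

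Region 2 lay in the gene body with its midpoint 2182 bp downstream of the start (chr7:19412697-19413855, 1159 bp). Its signal was 44.9, 33.1 and 34.1 CPM in NR4A2 mice and 68.6, 98.3 and 65.2 CPM in Control mice. The groups did not overlap, and the log2 fold change was -1.02 ± 0.27 (SE; limma adjusted p = 0.00357). Without Control mouse 2, which was the highest, it was -0.84 and was no longer called (adjusted p = 0.0723).

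Region 3, further into the gene, was short (chr7:19416679-19416909, 231 bp) and rested on few reads. The NR4A2 libraries had 1, 7 and 0 reads there, or 0.955, 11.0 and 0 CPM. The Control libraries had 24, 20 and 11 reads, or 24.6, 19.5 and 19.9 CPM. All 3 NR4A2 mice were below the Control mice, and mouse 2 was well above the other two of its group. The fitted log2 fold change of -2.95 ± 0.80 (SE; limma adjusted p = 0.00411) depended on the constant added before taking logs, being -3.42 with 0.5 and -1.75 with 5 CPM in place of 1. It moved between -3.99 and -2.19 when 1 mouse was left out, and without Control mouse 1 the call was lost (adjusted p = 0.0603).

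Region 4 lay near the 3′ end inside the gene (chr7:19421183-19421477, 295 bp). It held 22.0, 4.73 and 7.57 CPM in NR4A2 mice, against 31.8, 23.4 and 21.7 CPM in Control mice. NR4A2 mouse 1 lay just inside the Control range. The log2 fold change was -1.34 ± 0.50 (SE; limma adjusted p = 0.0495). This call was at the edge of the threshold and was lost in 10 of the alternative analyses, among them without NR4A2 mouse 2 or 3 and without any 1 of the Control mice. The authors' deposited table lists the region as unchanged, with a false discovery rate of 0.106.

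Like regions 3 and 4, region 5 was also within 10 kb of Mark4, and regions 1 and 2 were within 10 kb of Klc3. Region 5 began 1139 bp past the end of the gene (chr7:19422722-19423592, 871 bp). Its signal was 22.9, 66.2 and 11.4 CPM in NR4A2 mice, against 75.8, 65.2 and 61.5 CPM in Control mice. NR4A2 mouse 2 was within the Control range and the other two were far below it. The log2 fold change was -1.33 ± 0.43 (SE; limma adjusted p = 0.0355). It was -1.99 without NR4A2 mouse 2 and -0.77, no longer called, without NR4A2 mouse 3 (adjusted p = 0.144). Leaving out NR4A2 mouse 1 or Control mouse 3 also ended the call, at adjusted p of 0.180 and 0.0700.

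Summed over the 5 regions, Ckm signal was 125, 159 and 80.7 CPM in NR4A2 mice, against 275, 272 and 253 CPM in Control mice. The NR4A2 mean of 121.7 ± 39.4 CPM was 0.457 times the Control mean of 266.5 ± 11.5 CPM (SD, n = 3 each), and the groups did not overlap. The 3 Control mice lay within a narrow range, and the NR4A2 mice were spread more widely. Counted as reads with no scaling for depth, the sums were 131, 101 and 64 in NR4A2 libraries and 268, 279 and 140 in Control libraries, again without overlap.

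**Figure D2:**
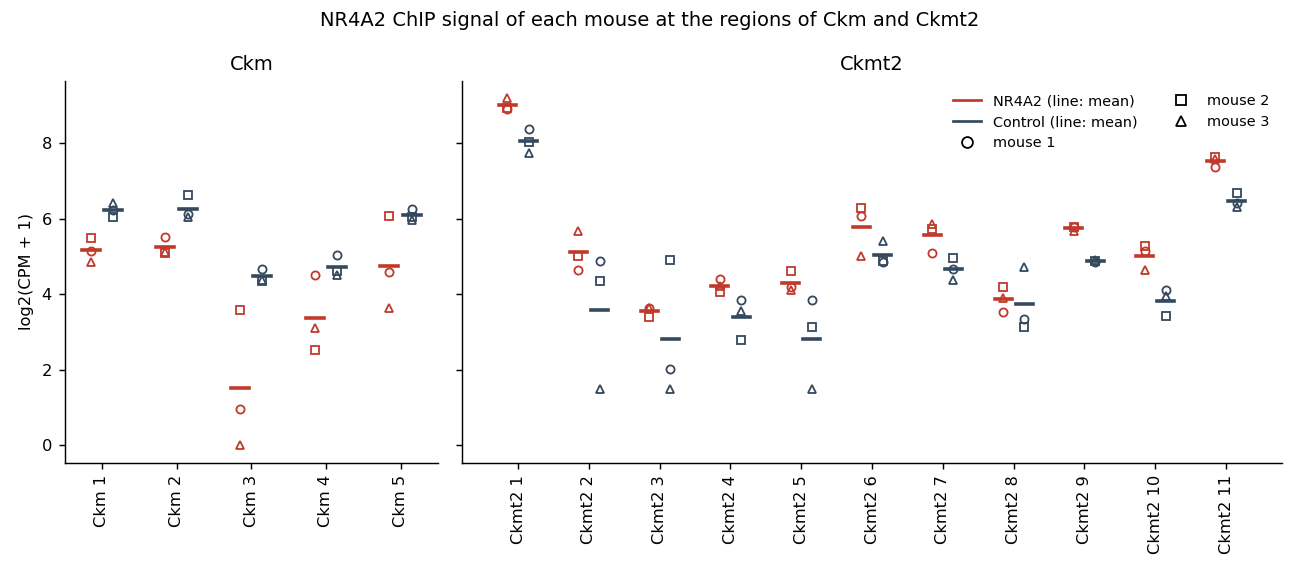
Signal of each mouse, as log2(CPM + 1), at the 5 regions of Ckm and the 11 of Ckmt2, with NR4A2 mice in red to the left of Control mice in blue and a line at the mean of each group. Symbols give mouse numbers, which were not used to pair mice across groups. At Ckm 1 and Ckm 2 all NR4A2 mice are below all Control mice, at Ckm 5 NR4A2 mouse 2 sits among the Control mice, and at Ckmt2 1 and Ckmt2 11 all NR4A2 mice are above all Control mice.

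Ckmt2 encodes the sarcomeric mitochondrial creatine kinase and lies on the minus strand at chr13:91853386-91876923. Regions 1, 2 and 3 of Ckmt2 were also within 10 kb of Rasgrf2. Ckmt2 region 1 covered the transcription start and was one of the longest of the table (chr13:91873643-91877794, 4152 bp, rank 59 by length). Signal there was 478, 485 and 583 CPM in NR4A2 mice, against 333, 261 and 212 CPM in Control mice. No Control mouse reached the lowest NR4A2 mouse. The means were 516 ± 58.3 CPM in NR4A2 hearts and 269 ± 61.0 CPM in Control hearts (SD, n = 3 each). The log2 fold change was 0.96 ± 0.16 (SE; limma adjusted p = 1.9e-06), the lowest adjusted p of the 27 regions. Its mean over the 6 mice was at the 99.4th percentile of all regions.

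The second strong region of Ckmt2 lay beyond the other end of the gene, 941 bp past the span (region 11, chr13:91850404-91852445, 2042 bp). It held 163, 197 and 192 CPM in NR4A2 mice, against 84.0, 101 and 77.8 CPM in Control mice. The groups were well separated, with means of 184 ± 18.2 CPM in NR4A2 hearts and 87.7 ± 12.1 CPM in Control hearts (SD, n = 3 each). The log2 fold change was 1.06 ± 0.19 (SE; limma adjusted p = 1.18e-05). Regions 1 and 11 kept their calls whichever mouse was left out, with adjusted p of at most 0.00196 and 0.00202.

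Both other called regions of Ckmt2 were also near the 3′ end of the gene. Region 10 was 142 bp outside the span (chr13:91852835-91853244) and had 34.4, 37.8 and 24.0 CPM in NR4A2 mice, against 16.4, 9.73 and 14.5 CPM in Control mice. Its log2 fold change was 1.19 ± 0.43 (SE; limma adjusted p = 0.0391). Region 9 was just inside the span (chr13:91853717-91854444), with 54.4, 53.6 and 50.5 CPM in NR4A2 mice, against 27.7, 28.2 and 29.0 CPM in Control mice. The mice of each group were close together at region 9 and the groups were far apart. Its log2 fold change was 0.88 ± 0.31 (SE; limma adjusted p = 0.0369). These calls were less stable than those of regions 1 and 11. That of region 9 was lost on leaving out any mouse except Control mouse 3, with adjusted p up to 0.105, and that of region 10 without NR4A2 mouse 1, NR4A2 mouse 2 or Control mouse 2, with adjusted p up to 0.163.

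The 7 uncalled regions of Ckmt2 all had positive estimates, between 0.14 and 1.54. The closest to the threshold was region 7 (chr13:91855946-91856735), with 33.4, 52.0 and 56.8 CPM in NR4A2 mice, against 24.6, 30.2 and 19.9 CPM in Control mice. Its groups did not overlap, and its log2 fold change was 0.89 ± 0.34 (SE; limma adjusted p = 0.0562). At region 6 (chr13:91857687-91858560) the signal was 65.9, 77.2 and 31.5 CPM in NR4A2 mice and 27.7, 28.2 and 41.6 CPM in Control mice. NR4A2 mouse 3 and Control mouse 3 crossed over there, and the log2 fold change was 0.75 ± 0.31 (SE; limma adjusted p = 0.0877). It was called without NR4A2 mouse 3 (1.14, adjusted p = 0.0199) or without Control mouse 3, and with edgeR or upper-quartile scaling, and the lowest estimate with 1 mouse left out was 0.50 (adjusted p = 0.409). Region 6 is listed as higher in the authors' deposited table, at a false discovery rate of 0.0456. By the authors' deposited calls 5 of the 27 regions are up and 4 down, against 14.9% up and 1.95% down over all regions, and the 2 differences in call from the fit used here are Ckm region 4 and Ckmt2 region 6.

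The other uncalled regions of Ckmt2, numbers 2, 3, 4, 5 and 8, rested on at most 40 reads in a library. At region 2 Control mouse 3 had 1 read, against 28 and 20 in the other two Control mice, and the estimate of 1.54 ± 0.72 (SE; limma adjusted p = 0.181) was the highest of the gene. Leaving out Control mouse 1, Control mouse 2 or NR4A2 mouse 2 brought region 2 past the threshold, with estimates up to 2.19. Region 5 also had 1 read in Control mouse 3, and its estimate of 1.49 ± 0.61 was called without Control mouse 1 (adjusted p = 0.0432). At region 3 the sign depended on the scale: the mean of logs gave 0.74, while the mean signal per length was 29.8 CPM per kb in NR4A2 hearts and 31.5 CPM per kb in Control hearts. Its NR4A2 libraries had 12, 6 and 9 reads and its Control libraries 3, 30 and 1. Region 4 had 20.1, 15.8 and 17.7 CPM in NR4A2 mice, all above the 13.3, 5.84 and 10.9 CPM in Control mice (log2 fold change 0.83 ± 0.54, SE; limma adjusted p = 0.315). Region 8 was at 0.14 ± 0.55 and its estimate ran between -0.16 and 0.63 when single mice were left out.

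**Figure D3:**
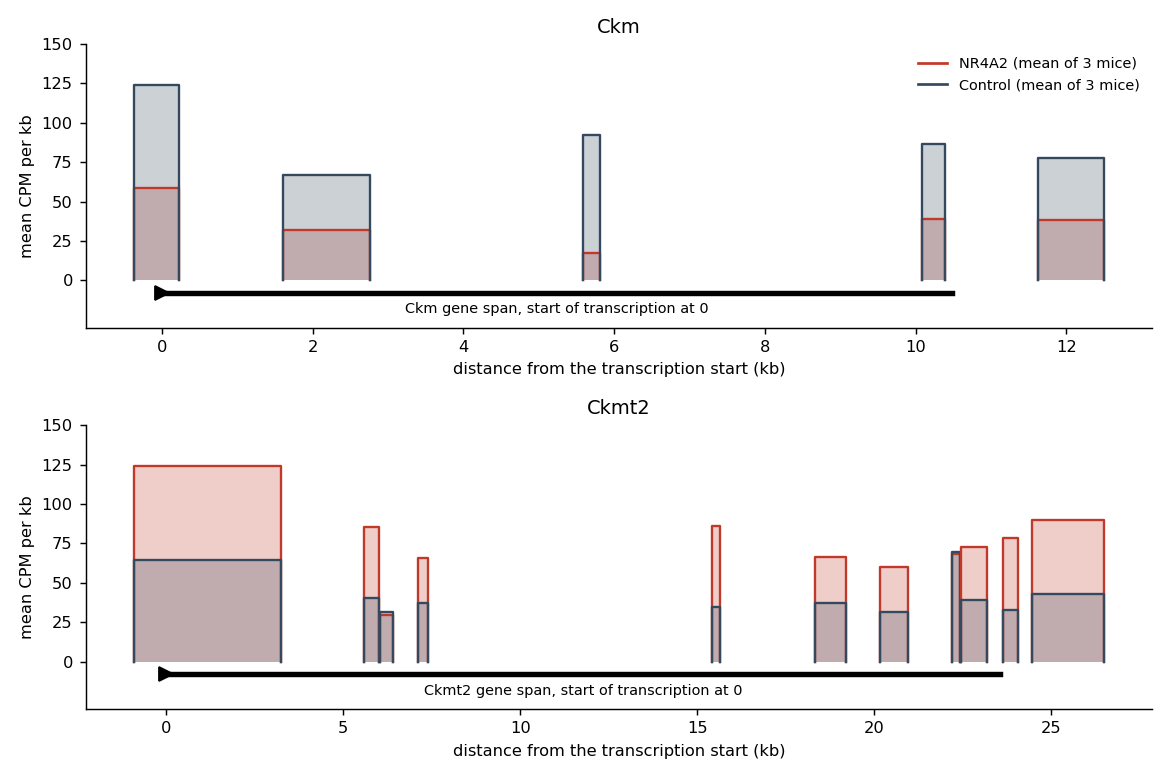
Mean signal per length (CPM per kb, 3 mice per group) across Ckm and Ckmt2, with each region drawn at its true width against the distance from the transcription start in kb, and the gene span as a black bar. At the start, Ckm stood at 58.8 CPM per kb in NR4A2 hearts and 124 in Control hearts, and Ckmt2 at 124 CPM per kb in NR4A2 hearts and 64.7 in Control hearts.

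Over its 11 regions Ckmt2 summed to 913, 1001 and 1047 CPM in NR4A2 mice, against 581, 528 and 436 CPM in Control mice. The NR4A2 mean of 987 ± 68.1 CPM was 1.92 times the Control mean of 515 ± 73.3 CPM (SD, n = 3 each), with no overlap between the groups. The same held for unscaled reads, at 956, 635 and 830 in NR4A2 libraries and 567, 543 and 241 in Control libraries.

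The division of signal among the regions of Ckmt2 was also compared. Its start region held 52.4, 48.5 and 55.7% of the gene's signal in NR4A2 mice and 57.3, 49.4 and 48.5% in Control mice. The shares of each of the 11 regions overlapped between the groups. At Ckm, 4 of the 5 shares overlapped. The exception was region 3, which held 0.763, 6.93 and 0% of Ckm signal in NR4A2 mice and 8.96, 7.17 and 7.86% in Control mice. Its NR4A2 shares came from 1, 7 and 0 reads. Shares at Ckb overlapped. At Ak1 only those of region 5 did not, at 10.1, 11.7 and 10% in NR4A2 mice and 7.99, 6.88 and 9.60% in Control mice. Shares were not taken at other genes for comparison. With 3 mice against 3, a two-sided exact permutation test cannot go below 0.1, so no p-value is given for shares and sums.

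The ratio of summed Ckmt2 to summed Ckm signal, which is taken within a library and does not depend on scaling between libraries, was 7.30, 6.29 and 13.0 in NR4A2 mice. It was 2.12, 1.95 and 1.72 in Control mice. The means were 8.85 ± 3.60 in NR4A2 hearts and 1.93 ± 0.198 in Control hearts (SD, n = 3 each). NR4A2 mouse 3, with the least Ckm and the most Ckmt2 signal, had the highest ratio.

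The order of the creatine kinase genes by signal per length also differed. In NR4A2 hearts Ckm was lowest at 38.5 ± 12.5 CPM per kb, below Ckmt2 at 94.3 ± 6.51 CPM per kb. In Control hearts Ckm stood at 84.4 ± 3.63 CPM per kb, above Ckmt2 at 49.2 ± 7.0 CPM per kb (SD, n = 3 each). The levels of the other 4 genes were between 82.2 and 104 CPM per kb in NR4A2 hearts and between 90.5 and 114 CPM per kb in Control hearts, and these neighbours in the order did not differ beyond their spread.

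**Figure D4:**
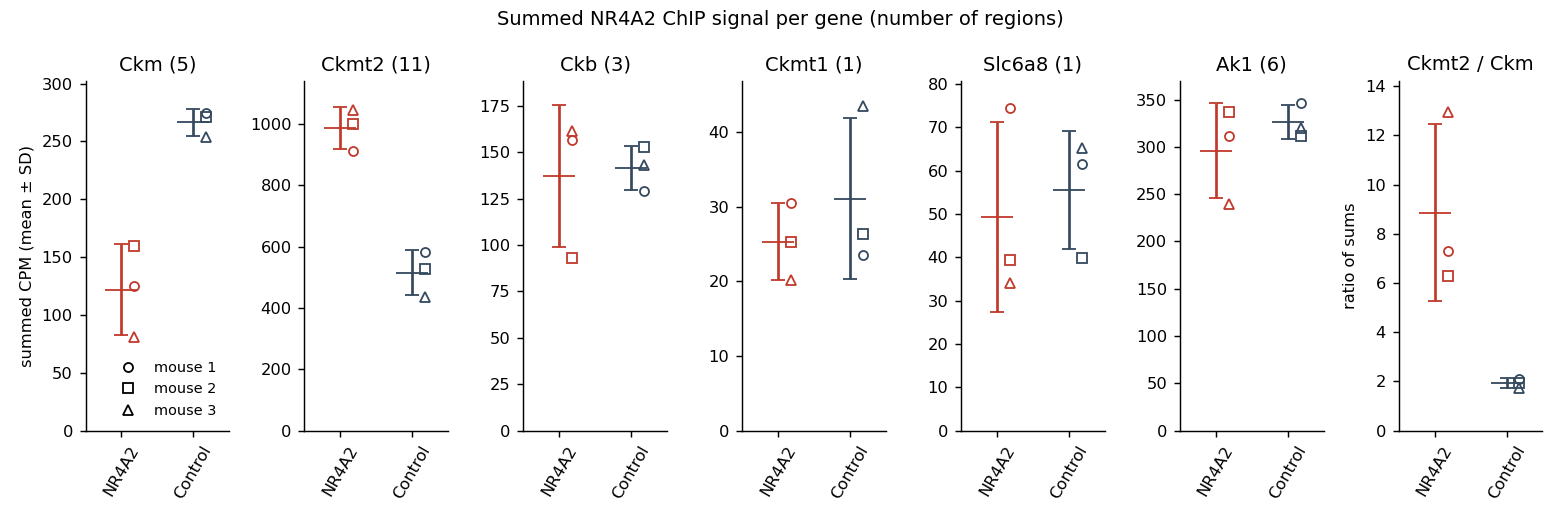
Summed CPM of the regions of each of the 6 genes, with the number of regions in brackets, and the ratio of summed Ckmt2 to summed Ckm signal at the far right, for NR4A2 mice (red, left) and Control mice (blue, right). Symbols are mice, horizontal lines are means and bars are SD. Ckm and Ckmt2 sums separate the groups in opposite directions, and the sums of the other 4 genes overlap.

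Ckb encodes the brain-type cytosolic subunit, which the heart holds together with the muscle subunit. It lies on the minus strand at chr12:111669355-111672338 and had 3 regions, all also within 10 kb of Trmt61a. The region over its start (chr12:111672086-111672394) held 36.3, 25.2 and 24.0 CPM in NR4A2 mice and 20.5, 31.1 and 34.4 CPM in Control mice. These overlapped entirely, with a log2 fold change of -0.00088 ± 0.37 (SE; limma adjusted p = 0.999). The strongest Ckb region (chr12:111668467-111669084) held 51.6, 34.7 and 79.5 CPM in NR4A2 mice and 59.4, 66.2 and 67.0 CPM in Control mice, and the log2 fold change was -0.29 ± 0.27 (SE; limma adjusted p = 0.516). The region upstream (chr12:111677683-111678071), at 5345 bp from the span the farthest of the 27, held 68.7, 33.1 and 58.0 CPM in NR4A2 mice and 49.2, 55.5 and 41.6 CPM in Control mice. NR4A2 mouse 2 was the lowest of its group in the sum, at 93.0 CPM, with 157 and 161 CPM in the other two NR4A2 mice and 129, 153 and 143 CPM in Control mice.

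Ckmt1 encodes the ubiquitous mitochondrial creatine kinase. Its one region lay 2487 bp outside the gene and overlapped Ppip5k1 (chr2:121355014-121355286), so its signal cannot be assigned to Ckmt1. It held 30.6, 25.2 and 20.2 CPM in NR4A2 mice, against 23.6, 26.3 and 43.4 CPM in Control mice. Control mouse 3 was alone above the rest, and the log2 fold change was -0.26 ± 0.38 (SE; limma adjusted p = 0.710). Neither of the 2 RefSeq promoter windows of Ckmt1 touched a region.

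Slc6a8, the creatine transporter gene on the X chromosome, had a single region across the beginning of its span (chrX:73672899-73673414). Signal was 74.5, 39.4 and 34.1 CPM in NR4A2 mice, against 61.5, 39.9 and 65.2 CPM in Control mice. Mice of both groups were spread over the same range, and the log2 fold change was -0.22 ± 0.29 (SE; limma adjusted p = 0.667).

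Ak1 encodes cytosolic adenylate kinase and had 6 regions (gene span chr2:32621758-32635058, plus strand). The strongest lay over one of its alternative starts (chr2:32625360-32626598) and held 146, 153 and 97.1 CPM in NR4A2 mice, against 159, 137 and 123 CPM in Control mice. The groups overlapped, with a log2 fold change of -0.10 ± 0.19 (SE; limma adjusted p = 0.779). The one Ak1 region whose groups were apart was region 3 in the gene body (chr2:32633687-32634134). It held 16.2, 22.1 and 25.2 CPM in NR4A2 mice, against 32.8, 48.7 and 39.8 CPM in Control mice. Its log2 fold change of -0.91 ± 0.36 did not pass the test (SE; limma adjusted p = 0.0725). The other 4 regions had estimates between -0.27 and 0.23. Ak1 regions 1 and 2 were also within 10 kb of St6galnac6, and region 6 was within 10 kb of Eng. The nearest region beyond the 10 kb limit of any of the 6 genes was also on the Ak1 side, 11404 bp from the span and inside Eng. It held 37.2, 47.3 and 64.3 CPM in NR4A2 mice and 41.0, 47.7 and 39.8 CPM in Control mice.

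Other genes of phosphate energy transfer were taken as a list of 27, of which 21 had at least 1 region within 10 kb (44 regions in all). Of these 44 regions, 5 were called higher and 1 lower, shares no larger than the 14.7% higher and 3.17% lower over all regions. Their median log2 fold change was -0.06, the same as over all regions. By gene, 5 of the 21 had a higher region and 1 a lower one, where 14.2% of all genes with a region had a higher one and 6.25% a lower one. Without scaling for depth, Ak7 was the one of these 6 calls that was kept. The called genes are given next as values and not as a result about the list. Creatine synthesis was covered through Gamt, which makes creatine from guanidinoacetate. Its 4 regions were not called, and Gatm had no region. Among 8 other adenylate kinase genes 4 had regions, and 1 of the 8 regions was called.

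The called adenylate kinase was Ak7, an isoform known from motile cilia, at a region in the gene body (chr12:105719773-105720390). It held 62.1, 33.1 and 85.8 CPM in NR4A2 mice, against 15.4, 1.95 and 18.1 CPM in Control mice, a log2 fold change of 2.55 ± 0.55 (SE; limma adjusted p = 0.0016). The lowest value, Control mouse 2, came from 2 reads. Without that mouse the estimate was 1.69, the lowest of a range up to 3.04 with 1 mouse left out. The other Ak7 region lay 2176 bp outside the gene and overlapped Papola. Every NR4A2 mouse was below every Control mouse there, without a call (log2 fold change -0.62 ± 0.26, SE; limma adjusted p = 0.0868). Of the 12 regions at the 7 genes of AMP metabolism, 2 were higher. Nt5e encodes the cell-surface 5′-nucleotidase that turns AMP into adenosine, and 1 of its 4 regions was called. This region (chr9:88361234-88361660) held 55.4, 58.3 and 34.1 CPM in NR4A2 mice, against 14.3, 19.5 and 25.3 CPM in Control mice (log2 fold change 1.28 ± 0.36, SE; limma adjusted p = 0.0058). The region over the Nt5e start was at 0.47 ± 0.31 (SE; limma adjusted p = 0.323). Without NR4A2 mouse 1 or mouse 2 the Nt5e call was lost, with adjusted p up to 0.0540. Adk, which phosphorylates adenosine to AMP, had 29.6, 20.5 and 15.1 CPM in NR4A2 mice and 5.12, 12.7 and 3.62 CPM in Control mice at a region deep in the gene (log2 fold change 1.59 ± 0.58, SE; limma adjusted p = 0.0424). The Adk call was lost on leaving out any 1 mouse except Control mouse 2, with adjusted p up to 0.209. The region over the Adk start was at -0.21 ± 0.21 (SE; limma adjusted p = 0.554).

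Nme3, a nucleoside diphosphate kinase, had its higher region 1601 bp outside the gene and inside Mapk8ip3. There the 3 NR4A2 mice had 37.2, 59.9 and 49.2 CPM and the Control mice 19.5, 14.6 and 16.3 CPM (log2 fold change 1.47 ± 0.37, SE; limma adjusted p = 0.0017). Of the 13 regions at the 5 genes for exchange of ADP and ATP across the mitochondrial membranes, 1 was higher and 1 lower. Vdac1, an outer-membrane channel, had 22.0, 36.3 and 39.1 CPM in NR4A2 mice and 13.3, 4.87 and 12.7 CPM in Control mice at its higher region (log2 fold change 1.63 ± 0.47, SE; limma adjusted p = 0.0070). Without NR4A2 mouse 3 or Control mouse 2 the Vdac1 call was lost, with adjusted p up to 0.0729. The region over the Vdac1 start was at -0.20 ± 0.17 (SE; limma adjusted p = 0.485). Slc25a4, the inner-membrane ADP/ATP carrier of heart and skeletal muscle, had a region of 10057 bp across the gene with 1327, 1499 and 1120 CPM in NR4A2 mice and 1992, 1859 and 1497 CPM in Control mice. NR4A2 mouse 2 was level with Control mouse 3, the log2 fold change was -0.44 ± 0.14 (SE; limma adjusted p = 0.0203), and the call was lost in 8 alternatives, with adjusted p up to 0.198 when 1 mouse was left out.

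The regions whose signal was most like that of the Ckmt2 start over the 6 mice were sought among 7860 regions of at least median signal near protein-coding genes. The 5 most alike were at Mpc2, Ugt2a1, Nek3, Tbc1d14 and Mbnl1, with Pearson correlations of 0.997, 0.995, 0.993, 0.992 and 0.991 across the 6 mice. Regions are named by the nearest gene, and the Ugt2a1 region lay 8146 bp outside that gene, while the others overlapped theirs. The points are mice of both groups, so any region with a clear difference between the groups scores high, and no p-value is given. Their own log2 fold changes were 0.62, 2.59, 3.05, 2.51 and 2.26.

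The labels were checked at Nr4a2, at the ROSA26 locus of the knock-in and at cell type markers. At the ROSA26 locus 2 regions were called higher and 1 was not called. The stronger of the 2 held 319, 303 and 252 CPM in NR4A2 mice, against 111, 127 and 147 CPM in Control mice. Its log2 fold change was 1.18 ± 0.17 (SE, limma adjusted p = 1.01e-07). The uncalled ROSA26 region was at 0.28 ± 0.15 (SE, limma adjusted p = 0.226). Nr4a2 itself had 2 of 4 regions higher (14.7% of all regions were), the stronger of them at 90.3 ± 21.3 CPM in NR4A2 hearts and 13.1 ± 10.6 CPM in Control hearts (SD, n = 3 each). Another Nr4a2 region had lower values, 13.4, 11.0 and 12.6 CPM in NR4A2 mice against 16.4, 36.0 and 36.2 CPM in Control mice, and was not called (log2 fold change -1.12 ± 0.45, SE; limma adjusted p = 0.0736). All 7 cardiomyocyte marker genes had regions, with summed signal of 34366 to 42291 CPM in NR4A2 mice and 26445 to 39624 CPM in Control mice. Of their 51 regions 13 were higher and 2 lower, against 14.7% and 3.17% of all regions. By gene, 6 of the 7 had a higher region, where 14.2% of all genes with a region had one. Actn2 alone held 24 regions. The sums of Actc1 and Actn2 were higher without overlap. Both lower regions were at Ryr2, where 2 of the 9 regions were also called higher. The Ryr2 sum was lower without overlap, at 457 to 511 CPM in NR4A2 mice and 527 to 591 CPM in Control mice. The sums of the other markers overlapped. The median log2 fold change of these 51 regions was 0.33, the same direction as at Ckmt2, and its part in the Ckmt2 result was not tested. Endothelial markers (4 of 5 with a region) summed to 396 to 535 CPM in NR4A2 mice and 557 to 667 CPM in Control mice, without overlap. By gene, only Tie1 was apart, at 20.5 to 35.3 CPM in NR4A2 mice and 45.1 to 63.4 CPM in Control mice. The sums of Pecam1, Kdr and Cdh5 overlapped, and Cdh5 had means of 77.8 CPM in NR4A2 hearts and 76.3 CPM in Control hearts. Of their 13 regions 2 were lower, where 3.17% of all regions were lower and 11.7% had every NR4A2 mouse below every Control mouse. Fibroblast markers (3 of 5) summed to 88.3 to 146 CPM in NR4A2 mice and 99.6 to 163 CPM in Control mice. Smooth muscle markers had 1 of 3 genes with a region, at 5.05 to 14.2 CPM in NR4A2 mice and 5.43 to 16.4 CPM in Control mice, and none of the 4 immune markers had one. The difference in the pooled endothelial sum goes in the same direction as that of Ckm, and its part in the Ckm result was not tested. ChIP signal at a marker is not its expression.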

How the data were processed

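NR4A2 ChIP-seq signal was measured in the ventricles of 3 NR4A2 and 3 Control mice. An antibody test and a pooled input were not analysed here. Alignment was with BWA to GRCm38 (mm10), per the submitters' processing notes. Steps not given in the sources used here were the calling, merging and counting of regions and the use of the spike-in. Deposited CPM values are reads per region scaled to library size by the authors, and whole reads could be recovered from 100% of them (within 0.001 read). Those library sizes carried the scaling factors that edgeR's TMM method gives. The authors' deposited log2 fold changes and p-values (with false discovery rates) per region are quoted only where named.

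Regions were tested with limma 3.58.1 (trend, robust) in R 4.3.3 on log2(CPM + 1), two-sided, with no covariate besides genotype and with p-values adjusted over all 16884 regions. The fit was checked on simulated data. edgeR 4.0.16 and DESeq2 1.42.0 were run on the recovered reads as alternatives, beside other scalings, pseudocounts (0.5 and 5), a filter at the median signal, each mouse left out, a replicate block and other spans around the genes. At regions with few reads the fold changes depend on the added constant and can differ from the ratio of the group means. Named with full values were, for each gene, its strongest region, every called region and the region of lowest adjusted p, and for the pathway list each called gene. Other values are shown as examples chosen after they were seen. The genes, lists and motifs were chosen with earlier results of these data known. Libraries are of separate mice. Precision taken from read numbers covers counting error only, and 1 read was worth 0.955 to 1.81 CPM. Protein sequences were not used here.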

Additional observations from a re-analysis of the deposited data

How the results depend on the processing

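The directions of the 9 called regions of Ckm and Ckmt2 were kept in every alternative run. Over all regions, the 2475 higher and 536 lower calls became 1391 and 14 with no scaling for depth, and 481 and 235 when only regions of at least median signal were tested (12 of the 27 were). Lower calls were 251 with DESeq2 and 262 with upper-quartile scaling. Leaving out 1 mouse gave 1577 to 2332 higher and 270 to 454 lower. Of the 27 regions, 4 were higher and 5 lower. Higher calls were 2 with DESeq2, 0 with no scaling for depth, 2 with the signal filter, 2 with only regions touching the span itself, and 3 to 5 with 1 mouse left out. Lower calls were 3 with DESeq2, 1 with no scaling for depth, 3 with pseudocount 0.5, 2 with the signal filter, 3 with upper-quartile scaling, and 3 to 4 with 1 mouse left out. Without scaling for depth the log2 fold changes at the starts of Ckm and Ckmt2 were -1.09 (adjusted p = 0.158) and 0.93 (adjusted p = 0.216), and Ckm region 3 was the one call left. In the pathway list, the 5 higher calls became 0 with the signal filter, since all 5 regions lie below the median signal and were not tested, and 3 to 4 with 1 mouse left out, and the 1 lower call became 0 with edgeR and with the signal filter and 0 to 1 with 1 mouse left out. Without scaling for depth, 4 of those 5 and the lower call were lost. Estimates changed sign at Ckmt1 without Control mouse 3 (0.0049, adjusted p = 0.996; range with 1 mouse left out -0.42 to 0.0049) and at the strongest Ak1 region without NR4A2 mouse 3 (0.10, adjusted p = 0.804; range -0.22 to 0.10), neither being called. With 1 mouse left out the sign also changed at Ckmt2 region 8 (-0.16 to 0.63) and at the start (-0.22 to 0.14) and upstream (-0.14 to 0.38) regions of Ckb. The same held at Ak1 region 2 (-0.14 to 0.22) and region 6 (-0.19 to 0.07). None of these was called. The cause of these changes was not tested, apart from the fewer regions tested under the signal and span filters. Same-numbered mice had correlations of deviations of -0.0658, 0.0609 and 0.0326, and not every mouse correlated best with its own number. With so few mice these correlations cannot show whether mice were paired. The labels state no pairing, and the main fit used none. A replicate block gave 2540 higher and 580 lower calls over all regions and 5 higher and 5 lower of the 27. With 20 to 40 reads in the median region of a library, differences at the weaker regions were less precisely measured than at the starts of Ckm and Ckmt2.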
